A study of Mus musculus with 568 samples.

Results

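*Pou5f1*, *Sox2*, *Sall4*, *Lin28a* and *Utf1* are pluripotency genes of the mouse embryo that early germ cells also transcribe, and they were followed here from embryonic stem cells (ESCs) to meiotic germ cells made in culture. The 5 genes were chosen by name with earlier results of these data known, including their fall in cells with high *Sycp3*, a meiotic gene. All 5 were found among the 16335 genes of the bulk table (by Ensembl identifier) and the 15718 genes of the single-cell table (by symbol). All cells came from XRep, a hybrid female mouse ESC line (129S1/SvImJ and CAST/EiJ) with a *Tsix* truncation on the 129S1/SvImJ X chromosome (Xmus), which makes that X the one that is silenced, a GFP reporter on the same X (XGFP), a tdTomato reporter on the other (XTomato), and rtTA at the *Rosa26* locus. It also carries doxycycline-inducible piggyBac transgenes for the germ cell factors *Prdm1* (BLIMP1), *Prdm14* and *Tfap2c*, and none for the 5 genes.

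Bulk RNA was measured in 16 libraries, 4 per group: unsorted ESCs without doxycycline, unsorted epiblast-like cells (EpiLCs) after 2 steps of 48 h, and primordial germ cell-like cells (PGCLCs) after 5 days in 1.5 µg/ml doxycycline, sorted as CD61+ SSEA1+ XTomato+ cells with the GFP reporter on (XGFP+ PGCLCs) or off (XGFP- PGCLCs). Single-cell RNA was measured in 24 ESC wells and in germ cells from reconstituted ovaries (rOvaries), in which day 5 PGCLCs were kept for 6 days with E13.5 female gonadal somatic cells. After filters (at least 4000 genes, at least 10000 reads, at most 5% mitochondrial reads) 462 rOvary cells were left. Of these, 88 were XGFP+ constitutive cells grown from XGFP+ PGCLCs, and the others were XGFPhigh (125), XGFPintermediate and XGFPlow cells grown from XGFP- PGCLCs. The filters left out 6 XGFP+ constitutive, 19 XGFPhigh, 16 XGFPintermediate and 15 XGFPlow wells. The model is 1 cell line, its PGCLC fate is driven by transgenes, and every sorted rOvary population is a single sample.

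These genes act at different levels of the same network. *Pou5f1* encodes OCT4, a POU-domain transcription factor, and *Sox2* an HMG-box factor that binds DNA together with OCT4 at composite elements. *Utf1* encodes a chromatin-bound protein and is a textbook target of the OCT4 and SOX2 pair. *Sall4* encodes a zinc finger factor that recruits the NuRD chromatin remodeller, and *Lin28a* an RNA-binding protein that blocks maturation of let-7 microRNAs. Primordial germ cells keep much of this network, and female germ cells shut it down as they enter meiosis, when *Sycp3*, a component of the synaptonemal complex, is made.

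Promoters of the 5 genes are shown because the network is known to feed on its own members. RefSeq start sites on GRCm38.p6 gave a region from 250 bases before to 50 bases after the start for 4 of the 5 genes. The lines below read 5' to 3' on the strand of the gene, and capitals mark matches, on either strand, to GGGCGG (a GC box), ATGCAAA (an octamer core, the letters a POU factor reads), CATTGT (a SOX core) or AGGTCA (a nuclear receptor half-site).
*Pou5f1*, chr17:35505782-35506081, + strand: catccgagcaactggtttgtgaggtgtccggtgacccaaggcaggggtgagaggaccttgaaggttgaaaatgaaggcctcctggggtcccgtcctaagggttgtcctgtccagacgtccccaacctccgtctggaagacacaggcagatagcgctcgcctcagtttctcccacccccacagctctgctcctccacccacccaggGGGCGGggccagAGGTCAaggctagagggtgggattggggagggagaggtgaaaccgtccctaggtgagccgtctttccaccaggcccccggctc
*Sox2*, chr3:34649745-34650044, + strand: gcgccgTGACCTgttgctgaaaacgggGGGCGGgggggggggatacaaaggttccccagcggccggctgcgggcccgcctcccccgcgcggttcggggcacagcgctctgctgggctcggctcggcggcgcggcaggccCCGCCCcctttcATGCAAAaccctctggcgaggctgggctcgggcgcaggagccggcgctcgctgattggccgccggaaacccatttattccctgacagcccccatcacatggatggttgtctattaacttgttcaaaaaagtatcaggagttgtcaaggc
*Lin28a*, chr4:134018767-134019066, - strand: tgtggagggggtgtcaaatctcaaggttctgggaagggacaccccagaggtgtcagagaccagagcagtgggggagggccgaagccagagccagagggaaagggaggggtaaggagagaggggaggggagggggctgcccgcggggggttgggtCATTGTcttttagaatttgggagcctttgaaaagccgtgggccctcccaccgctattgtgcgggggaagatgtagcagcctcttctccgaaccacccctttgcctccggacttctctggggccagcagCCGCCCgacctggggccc
*Utf1*, chr7:139943606-139943905, + strand: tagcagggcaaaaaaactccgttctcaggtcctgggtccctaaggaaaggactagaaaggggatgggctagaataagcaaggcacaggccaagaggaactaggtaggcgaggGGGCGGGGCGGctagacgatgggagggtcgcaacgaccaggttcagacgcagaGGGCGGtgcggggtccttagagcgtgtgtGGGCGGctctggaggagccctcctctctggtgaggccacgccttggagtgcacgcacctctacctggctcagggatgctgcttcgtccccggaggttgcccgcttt

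The *Pou5f1* region holds 1 GC box and 1 half-site, the *Sox2* region 2 GC boxes, 1 octamer core and 1 half-site, the *Lin28a* region 1 GC box and 1 SOX core, and the *Utf1* region 4 GC boxes, of which the first 2 share a base. All 4 regions thus hold a GC box, as do 35.7% of 32851 RefSeq promoters of the same length, against 4.63% with ATGCAAA, 12.6% with CATTGT and 16.3% with AGGTCA. The motifs were chosen with these sequences in view, so the matches beside these shares are a description and not a test. GC content was 62.7% for *Pou5f1*, 66.3% for *Sox2*, 63.3% for *Lin28a* and 62% for *Utf1* (median of all promoters 52.7%), and CpG counts were 11, 27, 10 and 17 in the same order (median 7). A match is a description of letters and not a bound site. The RefSeq start of *Sox2* lies 410 bases before the 5' end of its gene model in GENCODE vM21, so its 300-base region lies wholly upstream of that model.

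Bulk values are the authors' normalized counts, that is, reads per gene divided by 1 size factor per library. Gene totals ran from 29.8 to 46.5 M reads per library. All 5 genes passed the filter of a mean normalized count above 10, with 16281 genes tested, and a gene is called at a Benjamini-Hochberg adjusted FDR below 0.001 (limma-trend, two-sided, 1 model of all groups). ± is the SD over 4 libraries. The labels give replicate numbers alone, whereas the study's methods describe 2 clones with 2 technical replicates each, so the p-values may be too small. In bulk samples, fewer cells that transcribe a gene and less RNA per cell cannot be told apart.

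Across the 4 groups the 5 genes followed different courses, and none was lost in PGCLCs. *Pou5f1* was highest before PGCLC induction, *Sox2* was high in ESCs and PGCLCs and low in EpiLCs, *Lin28a* was high in EpiLCs alone, *Sall4* was highest in PGCLCs, and *Utf1* was low in ESCs and high in the other 3 groups. Per kilobase of exon, *Pou5f1* had the highest mean level of the 5 in every group, from 7874.5 normalized counts per kb in XGFP+ PGCLCs to 11882 in ESCs. The lowest level per kb was that of *Utf1* in ESCs (209), of *Sox2* in EpiLCs (1310), and of *Lin28a* in XGFP+ (994.5) and XGFP- PGCLCs (1362).

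**Figure D1:**
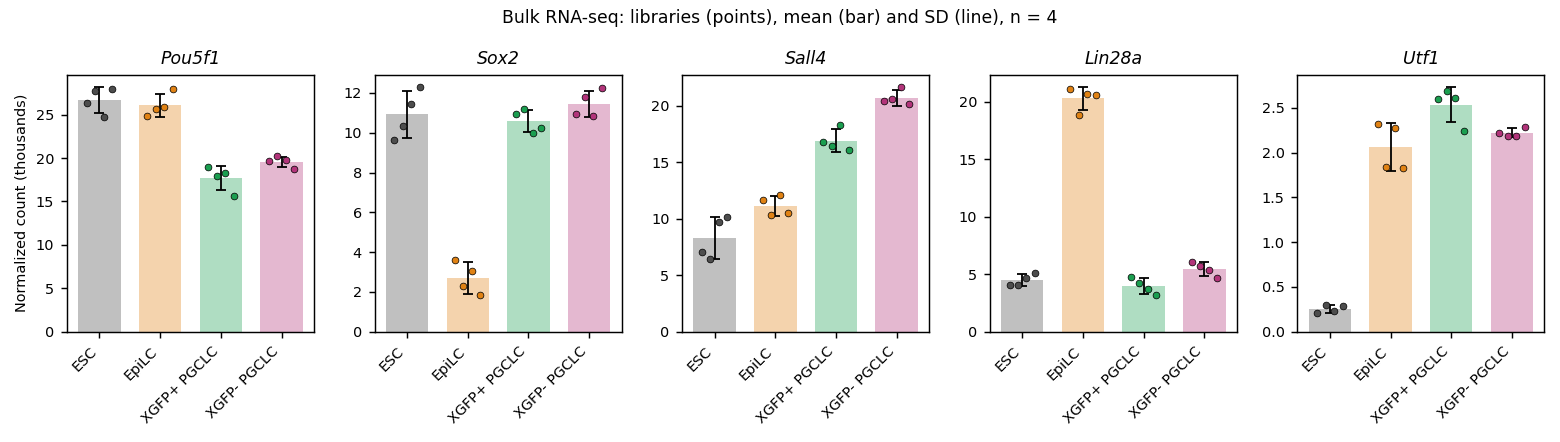
Normalized counts, in units of 1000 on a linear axis from 0, of the 5 genes in each of the 16 bulk libraries, by group, with points for libraries, bars for the mean and lines for the SD of 4. *Utf1* sits at 212 to 295 in ESCs and at 1827 or more elsewhere, whereas *Sox2* drops to between 1827 and 3594.5 in EpiLCs alone.

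*Pou5f1* (ENSMUSG00000024406, mm10 chr17:35506018-35510772, + strand, 6 exon blocks) gave 26339, 27766, 24745 and 27995 normalized counts in the ESC libraries (26711 ± 1502, n = 4) and 24878, 25652, 25864 and 27963 in the EpiLC libraries (26089 ± 1319). In XGFP+ PGCLCs the values were 18954, 17937, 18258 and 15658 (17702 ± 1427), and in XGFP- PGCLCs 19643, 20191, 19726 and 18754.5 (19579 ± 600.1). ESC and EpiLC libraries overlapped, and every PGCLC library lay below all of them. The log2 fold change from ESCs to EpiLCs was -0.03 (SE 0.0605, FDR = 0.645). *Pou5f1* fell from EpiLCs to XGFP+ PGCLCs by a factor of 1.48 (95% CI 1.35 to 1.61, FDR = 1.15e-07) and to XGFP- PGCLCs by a factor of 1.33 (1.22 to 1.45, FDR = 5.09e-06). Against ESCs the factors were 1.51 (1.38 to 1.65, FDR = 7.15e-08) and 1.36 (1.25 to 1.49, FDR = 2.03e-06). With quantile normalization the 2 falls in XGFP- PGCLCs shrank to a log2 fold change of -0.22 and were no longer called (FDR = 0.00195 against EpiLCs and 0.00209 against ESCs). Of its exon bases, 14.1% are shared with the antisense gene *Gm19553*; whether the bulk counting used strand is not given in the sources used here.

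*Sox2* (ENSMUSG00000074637, chr3:34650405-34652461, + strand, a single exon) gave 9659.5, 10332, 11442 and 12312.5 normalized counts in ESCs (10936.5 ± 1176), but 3594.5, 2299, 3061 and 1827 in EpiLCs (2695 ± 786). XGFP+ PGCLCs had 10943, 11208, 10013 and 10235 (10599.9 ± 567), and XGFP- PGCLCs 10967, 11777, 10847 and 12228 (11455 ± 661). All 4 EpiLC libraries were below every other library, and the ESC and both PGCLC groups overlapped. *Sox2* fell 4.18-fold in EpiLCs against ESCs (95% CI 3.4 to 5.13, FDR = 2.94e-10), and rose 4.06-fold from EpiLCs to XGFP+ PGCLCs (3.3 to 4.99, FDR = 2.99e-10) and 4.39-fold to XGFP- PGCLCs (3.57 to 5.39, FDR = 1.05e-10). Between XGFP+ PGCLCs and ESCs the ratio was 0.972 (0.791 to 1.2, FDR = 0.813), and between XGFP- PGCLCs and ESCs 1.05 (0.855 to 1.29, FDR = 0.658). *Sox2* lies within an intron of *Sox2ot*, with 0 shared exon bases.

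*Utf1* (ENSMUSG00000047751, chr7:139943789-139945112, + strand, 2 exon blocks) gave 212, 295, 227 and 289.6 normalized counts in ESCs (256 ± 42.6) and 2316, 1844, 2274 and 1827 in EpiLCs (2065 ± 266). In XGFP+ PGCLCs it stood at 2603, 2687, 2613 and 2244 (2537 ± 199), and in XGFP- PGCLCs at 2224.5, 2187.5, 2187 and 2289 (2222 ± 48.1). ESC libraries lay far below all others, whereas the EpiLC and both PGCLC groups overlapped. *Utf1* rose 8.07-fold from ESCs to EpiLCs (95% CI 6.93 to 9.41, FDR = 2.87e-14), and was 9.95-fold higher in XGFP+ PGCLCs (8.54 to 11.6, FDR = 1.21e-14) and 8.74-fold higher in XGFP- PGCLCs (7.5 to 10.2, FDR = 8.66e-15) than in ESCs. The ratio of XGFP+ PGCLCs to EpiLCs was 1.23 (1.06 to 1.44, FDR = 0.0145) and that of XGFP- PGCLCs to EpiLCs 1.08 (0.929 to 1.26, FDR = 0.326), and neither was called. In the ESC libraries *Utf1* was thus low while *Pou5f1* and *Sox2*, its textbook activators, were at or near their highest levels.

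*Sall4* (ENSMUSG00000027547, chr2:168748332-168767943, - strand, 7 exon blocks) gave 7026, 6431, 9680 and 10118 normalized counts in ESCs (8314 ± 1855), 11621, 10328, 12092 and 10457.5 in EpiLCs (11124 ± 868), 16816, 16453, 18311 and 16037 in XGFP+ PGCLCs (16904 ± 990.4), and 20368, 20542, 21659.6 and 20129 in XGFP- PGCLCs (20675 ± 678). Its 4 groups did not overlap in this order, although ESC replicate 4 lay just under the lowest EpiLC library. *Sall4* rose 1.52-fold from EpiLCs to XGFP+ PGCLCs (95% CI 1.3 to 1.78, FDR = 6.71e-05) and 1.86-fold to XGFP- PGCLCs (1.59 to 2.18, FDR = 5.23e-07). Relative to ESCs it was 2.07-fold higher in XGFP+ (1.76 to 2.43, FDR = 1.03e-07) and 2.53-fold higher in XGFP- PGCLCs (2.16 to 2.97, FDR = 2.16e-09). The 1.36-fold difference between EpiLCs and ESCs (log2 fold change 0.44, 95% CI 0.21 to 0.68) was not called (FDR = 0.00152), but was without ESC replicate 3 (FDR = 0.00039) or ESC replicate 4 (FDR = 0.000146), with quantile normalization (0.000561), with library totals (0.000537) and by the DESeq2 Wald test (0.000652). *Gm14261*, on the opposite strand, shares 9.5% of its exon bases.

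*Lin28a* (ENSMUSG00000050966, chr4:134003330-134018841, - strand, 7 exon blocks) gave 4065, 4053, 4676 and 5108 normalized counts in ESCs (4475 ± 512), but 21085, 18844, 20693 and 20618 in EpiLCs (20310 ± 998.5). XGFP+ PGCLCs had 4762, 4213, 3686 and 3235 (3974 ± 660.0), and XGFP- PGCLCs 6049, 5694, 5362 and 4659.8 (5441 ± 592). EpiLC libraries stood far above all others, and the ESC, XGFP+ and XGFP- ranges overlapped. *Lin28a* rose 4.56-fold from ESCs to EpiLCs (95% CI 3.91 to 5.31, FDR = 1.8e-12), then fell 5.16-fold in XGFP+ PGCLCs (4.43 to 6.01, FDR = 5.58e-13) and 3.75-fold in XGFP- PGCLCs (3.22 to 4.36, FDR = 7.26e-12). The ratio of XGFP+ PGCLCs to ESCs was 0.883 (0.758 to 1.03, FDR = 0.136) and that of XGFP- PGCLCs to ESCs 1.22 (1.04 to 1.42, FDR = 0.0207). *Gm13061*, on the opposite strand, shares 5.9% of its exon bases.

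Counted together, 3 of the 5 genes were called between EpiLCs and ESCs, against 47.8% of all genes tested. Calls reached 4 of 5 between XGFP+ PGCLCs and EpiLCs (background 57.3%) and 4 of 5 between XGFP- PGCLCs and EpiLCs (61.9%). Between PGCLCs and ESCs, 3 of 5 were called for XGFP+ (49.9%) and 3 of 5 for XGFP- cells (59.4%). Between 47.8% and 61.9% of all genes were called in each of these comparisons, so the counts alone do not set the 5 genes apart. These comparisons share groups of libraries and are not independent of each other. EpiLC libraries also carried markers of other lineages: 4 of 6 early mesoderm and endoderm markers could be tested, with a summed normalized count of 2481 to 5763 in EpiLCs against 304 to 489 in ESCs and at most 608 in PGCLCs, led by *Eomes* and *T*. Of 9 gonadal somatic markers 5 could be tested, with a sum of 2791 to 5213 in EpiLCs against at most 482 elsewhere, nearly all of it *Fst*, with *Gata4* at 16.9. The part of these transcripts in the EpiLC values was not tested.

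**Figure D2:**
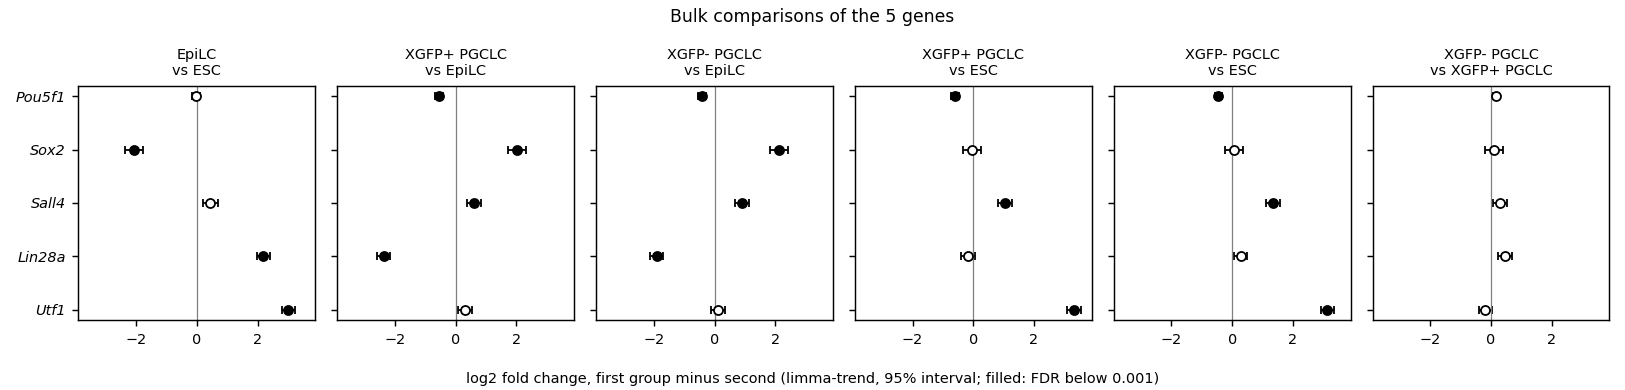
Log2 fold changes of the 5 genes in the 6 bulk comparisons, with 95% confidence intervals from limma-trend; filled points are called at FDR below 0.001. *Lin28a* and *Sox2* move in opposite directions around EpiLCs, *Utf1* moves against ESCs alone, and no point is called between XGFP- and XGFP+ PGCLCs.

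The comparison of PGCLCs with the reporter on the Xmus on or off asks how these genes stand in the 2 X-chromosome states. With limma, 0 of 5 were called between XGFP- and XGFP+ PGCLCs (background 23.8%), although 3 of 5 had an unadjusted p below 0.05, against 54.1% of all genes. On recovered reads the edgeR quasi-likelihood test called 0 of 5 (4 at an unadjusted p below 0.05) and DESeq2 1 of 5 (3 at that p). The ratio of XGFP- to XGFP+ means on the log scale was 1.38 for *Lin28a* (95% CI 1.18 to 1.6, FDR = 0.00137), 1.22 for *Sall4* (1.04 to 1.44, FDR = 0.0351) and 1.11 for *Pou5f1* (1.01 to 1.21, FDR = 0.0505). The ratios of *Sox2* and *Utf1* were 1.08 (0.879 to 1.33, FDR = 0.545) and 0.878 (0.753 to 1.02, FDR = 0.151). For *Sall4* all XGFP- libraries lay above all XGFP+ libraries, whereas the other 4 genes overlapped. *Lin28a* was called without XGFP+ replicate 1 (FDR = 0.000262), without XGFP- replicate 4 (FDR = 0.000555) and by DESeq2 (0.000224), and *Sall4* when the model held these 2 groups alone (0.000814).

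XGFP+ and XGFP- libraries of the same number deviated together, so a model of these 8 libraries with the replicate number as a block was added after seeing the data. It called *Lin28a* (FDR = 3.06e-06) and *Sall4* (FDR = 3.78e-05), thus 2 of 5 against 32.1% of all genes, and not *Pou5f1* (0.0105), *Utf1* (0.0123) or *Sox2* (0.0514). *Lin28a* was higher in the XGFP- library of all 4 pairs, at 6049 against 4762, 5694 against 4213, 5362 against 3686 and 4659.8 against 3235. Both groups were low in replicate 4 and high in replicate 1, so its ranges overlap although every pair differs in the same direction.

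Other genes of the network were read from lists. Among 31 further pluripotency genes (naive, formative and general), 8 rose, 18 fell and 5 were not called from ESCs to EpiLCs (median log2 fold change -1.77, against 0.01 over all genes). *Fgf5*, a formative epiblast growth factor, rose from 9.7 to 3551 normalized counts, and *Tbx3*, a naive T-box factor, fell from 4156 to 49.5. From EpiLCs to XGFP+ PGCLCs, 18 rose, 9 fell and 4 were not called, and to XGFP- PGCLCs 13 rose, 11 fell and 7 were not called. *Tcl1*, an AKT co-activator, rose from 83.6 to 3948 in XGFP+ and 1367 in XGFP- PGCLCs, while *Dnmt3b*, a de novo DNA methyltransferase, fell from 46987 to 1173 and 203. *Prdm14*, which also rose from 176.5 to 3411 and 4291, may include transgene reads in PGCLCs.

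Against ESCs, 6 of the 31 genes rose in XGFP+ cells, 9 fell and 16 were not called, and in XGFP- cells 3 rose, 15 fell and 13 were not called. Directly compared, 2 of 31 were higher in XGFP- than in XGFP+ PGCLCs, 12 were lower and 17 were not called, and with the libraries paired by number 3 were higher and 17 lower (32.1% of all genes called). *Fgf4*, a growth factor gene activated by OCT4 and SOX2, had means of 54.9 in XGFP- PGCLCs, 684 in XGFP+ PGCLCs, 2971 in EpiLCs and 11049 in ESCs, and *Tbx3* had 9.8 in XGFP- against 239 in XGFP+ PGCLCs. *Nanog* averaged 31563 in ESCs and 3690 in EpiLCs, then 12047 in XGFP+ and 10077 in XGFP- cells. It was named after its values were seen. *Klf4* fell from 5734 in ESCs to 315 in XGFP+ PGCLCs, and *Dppa3*, a maternal factor and germ cell marker, rose from 2327 to 9728.

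Among 13 genes of the LIN28 and let-7 axis, which holds the enzymes that act with LIN28 and let-7 targets, 4 rose, 3 fell and 6 were not called from ESCs to EpiLCs. *Lin28b*, the paralogue of *Lin28a*, averaged 3952 in EpiLCs, 1152 in ESCs, 837 in XGFP- PGCLCs and 632 in XGFP+ PGCLCs, and so had its highest mean in EpiLCs, as *Lin28a* did. From EpiLCs to PGCLCs 3 rose, 7 fell and 3 were not called in XGFP+ and 5 rose, 7 fell and 1 was not called in XGFP- cells, where *Hmga2*, a let-7 target, fell from 496 to 46.7 and 18.3. Against ESCs, 3 rose, 5 fell and 5 were not called in XGFP+ and 4 rose, 4 fell and 5 were not called in XGFP- PGCLCs. Between XGFP- and XGFP+ cells, 1 of 13 was called, *Dis3l2*, an exonuclease that degrades uridylated pre-let-7, with 1782 against 1348 (FDR = 6.65e-05). In the paired model *Hmga2* and *Tut4* were called as well.

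The 11 NuRD subunits, partners of SALL4, moved in both directions. From ESCs to EpiLCs 4 rose, 2 fell and 5 were not called, and from EpiLCs 4 rose, 3 fell and 4 were not called in each PGCLC group. Against ESCs, 5 rose, 4 fell and 2 were not called in each PGCLC group, and 1 of 11 was called between XGFP- and XGFP+ cells (3 in the paired model, with *Chd4* and *Mta2*). *Mta1* rose from 1444 in ESCs and 1620 in EpiLCs to 5241 in XGFP+ and 5949 in XGFP- PGCLCs. *Rbbp7*, a histone chaperone of the complex, fell from 22773 in ESCs to 14371 and 10512, and was the subunit called between the PGCLC groups without pairing (FDR = 3.32e-06).

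Of 12 paralogues of the 5 genes, 11 could be tested. From ESCs to EpiLCs 4 rose, 2 fell and 5 were not called, with *Pou3f1* (OCT6) rising from 46.9 to 2959. In XGFP+ PGCLCs 1 rose and 6 fell against EpiLCs, and in XGFP- PGCLCs 2 rose and 6 fell. *Sox15* rose from 39.1 in EpiLCs to 1141 in XGFP+ and 1125 in XGFP- PGCLCs, and *Sall2* fell from 3964 to 81.3 and 207. Against ESCs 2 rose and 6 fell in XGFP+ and 2 rose and 3 fell in XGFP- PGCLCs, and between XGFP- and XGFP+ PGCLCs *Sall2* was called (207 against 81.3, FDR = 1.15e-05), with *Sall1* and *Sall3* as well, also higher in XGFP- cells, in the paired model. *Sall2* thus fell from EpiLCs to PGCLCs where *Sall4* rose.

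The sorted PGCLCs mostly had higher levels of germ cell markers. The surface markers used to sort them were not examined here. Of 8 germ cell markers, all 8 rose in XGFP+ and 6 rose in XGFP- PGCLCs against ESCs (2 were not called), and *Prdm1* and *Tfap2c* among them may include transgene reads. Against EpiLCs 7 and 6 rose, with 0 and 1 falling, and from ESCs to EpiLCs 2 rose and 5 fell. *Dazl*, a germ cell RNA-binding protein, averaged 4792 ± 2364 in XGFP+ and 348 ± 312 in XGFP- PGCLCs. Between XGFP- and XGFP+ cells, 2 were higher and 3 lower (4 and 4 in the paired model). Of 10 meiotic genes 9 could be tested, and 3 rose in XGFP+ PGCLCs against ESCs, where in XGFP- PGCLCs 1 rose and 4 fell. Summed neural markers (3 of 4 tested) were 3149 to 5449 normalized counts in ESCs, 764 to 1278 in EpiLCs, 2016 to 2786 in XGFP+ and 624 to 695 in XGFP- PGCLCs, and endothelial and blood markers (2 of 4) at most 233.7 in any library. The neural sum in ESCs was mostly *Tubb3* (mean 4230). *Pax6* averaged 12.2 in ESCs and 26.4 in EpiLCs, but 542 in XGFP+ and 305 in XGFP- PGCLCs. The part of these transcripts in the members' values was not tested.

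Genes whose profile over the 16 libraries was most like each member are given as a description, since these libraries share 4 groups. Of the 11702 genes that averaged more than 100 normalized counts, *Zdhhc15* (Pearson r = 0.983), *Umps* (0.976) and *Rgs19* (0.975) were closest to *Pou5f1*, and *Prdm14* (0.991, possibly with transgene reads), *Alpl* (0.987) and *Atp9a* (0.985) to *Sox2*. The closest to *Sall4* were *Fgfr2* (0.986), *Epc1* (0.986) and *Gm14230* (0.985), to *Lin28a* *Nrcam* (0.995), *Wipf3* (0.989) and *Klhl7* (0.988), and to *Utf1* *Enpp3* (0.989), *Car14* (0.989) and *Dusp4* (0.984). *Alpl*, the tissue-nonspecific alkaline phosphatase long used to stain stem cells and germ cells, had means of 8667 in ESCs and 1238 in EpiLCs, then 8012.5 in XGFP+ and 8664 in XGFP- cells. No member was among the 3 genes most like another. Between members r ran from -0.93 (*Sox2* and *Lin28a*) to 0.78 (*Sall4* and *Utf1*).

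In the single cells, levels are reads per 1000000 reads (CPM) of the counts summed over the cells of a population. Intervals cover counting error only, and no test between populations was possible with 1 sample each. The median kept cell had 1103780 reads among ESC wells, 354149 among XGFP+ constitutive cells and 636623 to 645474 in the other populations, and the 10 empty wells held 0 reads of the 5 genes. ESC wells were on another flow cell than all rOvary wells, so cell type and sequencing run cannot be told apart. XGFP+ constitutive cells were sequenced in lane 2 alone, and the other rOvary populations mostly in lane 3. The libraries are not stranded, so reads of *Pou5f1*, *Sall4* and *Lin28a* cannot be told from those of their overlapping partners. Germ cell markers were present in every rOvary population: the median cell had 3063 to 4256 CPM of the 8 germ cell markers against 158 in ESC wells. In summed counts *Dazl* was the largest part, at 1692 to 3107 CPM. All 8 markers were above ESC wells in XGFP+ constitutive and XGFPhigh cells. In XGFPintermediate and XGFPlow cells 7 of 8 were, and *Tfap2c* was lower (16.1 and 34.6 against 42.6). The median cell of each rOvary population had 0 CPM of the 9 gonadal somatic markers. In summed counts, however, these somatic markers came to 14.1 CPM in ESC wells, 7.48 in XGFP+ constitutive, 9.45 in XGFPhigh, 26.3 in XGFPintermediate and 32.3 in XGFPlow cells. In ESC wells all of it was *Amhr2* (14.1 CPM). Endothelial and blood markers (3 genes) came to 37.2 CPM in XGFPintermediate cells and to at most 0.577 elsewhere, and neural markers (2 genes) to 291.8 in ESC wells, 192 in XGFPlow and 26.2 to 48.5 in the other cells. The neural sum was mostly *Tubb3* in ESC wells (290.7) and XGFPlow cells (167.9). *Pax6*, the other neural gene, was 1.11 in ESC wells and 7.44 to 24.1 in the rOvary populations. *Dazl* was at or below 1 (natural-log normalized) in 12 XGFP+ constitutive, 7 XGFPhigh, 12 XGFPintermediate and 30 XGFPlow cells. The part of these cells and markers in the levels was not tested.

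*Pou5f1* was lower in all 4 rOvary populations than in ESC wells, and the other 4 genes were mostly higher. The median of all genes compared was higher than in ESC wells too. Its log2 ratio was 0.46 in XGFP+ constitutive, 0.38 in XGFPhigh, 0.72 in XGFPintermediate and 0.77 in XGFPlow cells. A rise alone therefore does not set a gene apart. *Pou5f1* stood at 159 CPM in ESC wells (95% interval 154 to 164), 69.6 in XGFP+ constitutive (66.7 to 72.6), 97.2 in XGFPhigh (95.1 to 99.4), 33.3 in XGFPintermediate (32.1 to 34.5) and 48.7 in XGFPlow cells (47.2 to 50.2). Its median over cells fell more steeply, from 155 in ESC wells to 71.5, 80, 11.8 and 15 in the same order. All ESC cells held a read of it, against 81.8%, 91.2%, 63.3% and 63.6% of the rOvary cells. XGFPintermediate and XGFPlow cells had both the lowest medians and the lowest shares of cells with a read.

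*Sox2* stood at 55.4 CPM in ESC wells (52.6 to 58.4), 83.4 in XGFP+ constitutive (80.2 to 86.6), 67.2 in XGFPhigh (65.4 to 69), 24.4 in XGFPintermediate (23.3 to 25.5) and 38.3 in XGFPlow cells (37 to 39.7). Its median over cells was 53.3, 90.6, 61.6, 2.81 and 21.2 CPM. *Sox2* was therefore above ESC wells in the 2 populations with the GFP reporter fully on, and below them in the other 2.

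*Utf1* was 53.3 CPM in ESC wells (50.5 to 56.2) and higher in every rOvary population, at 103.3 in XGFP+ constitutive (99.8 to 106.9), 152.7 in XGFPhigh (150.0 to 155.3), 147 in XGFPintermediate (144.4 to 149.6) and 182.7 in XGFPlow cells (179.7 to 185.7). Medians were 47.4, 59.4, 95.6, 60.4 and 104.8 CPM. In XGFPintermediate cells the quartiles of *Utf1* were 0 and 243.5 CPM, so that cells without a read and cells far above the ESC wells (highest 157.2 CPM) stood side by side.

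*Sall4* was 26 CPM in ESC wells (24.1 to 28), 50.1 in XGFP+ constitutive (47.7 to 52.6), 52.6 in XGFPhigh (51 to 54.2), 37 in XGFPintermediate (35.8 to 38.4) and 50 in XGFPlow cells (48.4 to 51.6). *Lin28a* was the least detected of the 5. It was 4.31 CPM in ESC wells (3.54 to 5.18), 3.13-fold higher in XGFP+ constitutive cells (interval 12.2 to 14.8 CPM), 8.64 in XGFPhigh (8.02 to 9.3), 6.39 in XGFPintermediate (5.86 to 6.95) and 9.71 in XGFPlow cells (9.04 to 10.4). Median cells held 20.9, 42.6, 50.1, 20.7 and 35.7 CPM of *Sall4*, and 2.2, 6.06, 4.79, 0 and 3.22 CPM of *Lin28a*. Among the rOvary populations, XGFPintermediate cells had the lowest level of *Pou5f1*, *Sox2*, *Sall4* and *Lin28a*, and XGFP+ constitutive cells that of *Utf1*.

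**Figure D3:**
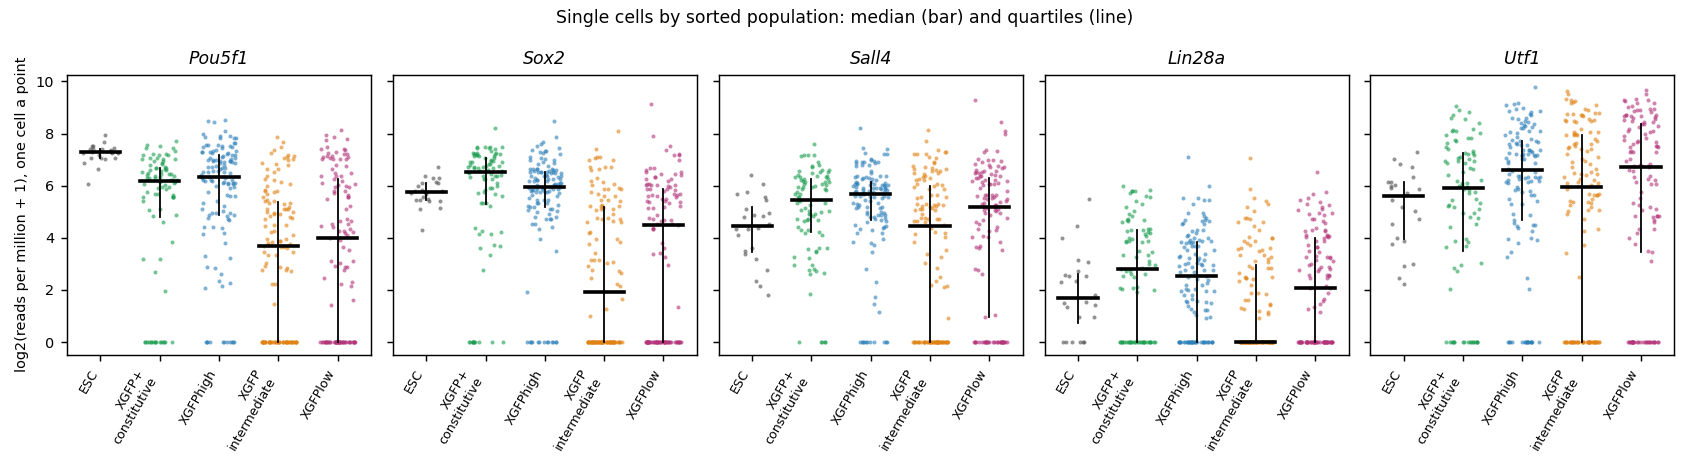
Levels of the 5 genes as log2(CPM + 1) in single cells, by sorted population and ESC wells, with points for cells, bars for medians and lines for quartiles. Median *Pou5f1* drops from 155 CPM in ESC wells to 11.8 in XGFPintermediate cells, and each rOvary population has cells at 0.

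Over the 4 populations and 5 genes, 6 of 20 levels were below ESC wells, 4 of them *Pou5f1* and 2 *Sox2*, and in *Dazl*-positive cells alone the same number was, with *Pou5f1* at 71.8, 95.6, 34.7 and 46 CPM from XGFP+ constitutive to XGFPlow cells. By medians over cells 8 of 20 were below, since *Sall4* and *Lin28a* in XGFPintermediate cells were lower too. The share of all genes lower than in ESC wells was 32.4% for XGFP+ constitutive, 33.6% for XGFPhigh, 29.3% for XGFPintermediate and 27.2% for XGFPlow cells. The count of 6 of 20 alone thus does not set the 5 genes apart. With the cells of lane 2 alone the count was 9 of 20, as *Sox2* and *Lin28a* in XGFPhigh (log2 ratio -0.26 and -0.94) and *Lin28a* in XGFPintermediate (-1.39) turned to lower than ESC wells, with 14 to 16 cells of these populations left. Shares of cells with a read, after thinning each cell to 100000 reads, were lower than in ESC wells in 14 of 20. Shares and levels thus point different ways for 8 of them, and no order is read from these shares.

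The last comparison follows the 5 genes along *Sycp3*. Of 462 rOvary cells, 401 had a natural-log normalized *Dazl* above 1, and the 41 cells in the highest 10% of *Sycp3* among them were set against the other 360. 14 cells lay within 0.25 of the limit, and the cells next to it were at 1.97 inside and 1.96 outside on the natural-log scale, so the limit cuts a range and not a cell type. Of the 41 cells 26 were XGFPintermediate, 7 XGFPhigh, 7 XGFPlow and 1 XGFP+ constitutive, and 38 were in lane 3. Their median depth was 624.6 k reads (k for 1000), against 598.1 k in the rest. *Dazl*, *Sycp3* and the cells chosen by them serve as a ruler here, and the values are descriptions.

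All 5 genes were close to absent in *Sycp3*-high cells. *Pou5f1* was 1.56 CPM there (41 reads in 41 cells) against 68.6 in the rest, or 44-fold lower (counting interval 32.4 to 61.3). *Sox2* was 0.228 CPM against 53.8, or 235.5-fold lower (108.2 to 641.9), and its 6 reads came from a single cell. *Utf1*, the most abundant of the 5 in these cells, was 9.28 against 180 CPM, or 19.4-fold lower (17.1 to 22.1). *Sall4* was 2.66 against 54.7 CPM, or 20.5-fold lower (16.2 to 26.3), and *Lin28a* 0.571 against 10.5 CPM, or 18.5-fold lower (11.2 to 33.1).

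The median *Sycp3*-high cell had 0 reads of each of the 5 genes. A read was seen in 14.6% of these cells for *Pou5f1* (exact binomial 95% interval 5.57 to 29.2), 2.44% for *Sox2*, 12.2% for *Sall4*, 14.6% for *Lin28a* and 19.5% for *Utf1*. The cells with a read lay mostly next to the limit, at a natural-log *Sycp3* of 1.97 to 2.39 for *Pou5f1*, 2.26 for *Sox2*, 2.16 to 2.29 for *Sall4*, 2.15 to 4.3 for *Lin28a* (5 of 6 cells below 2.5) and 2.13 to 2.88 for *Utf1* (7 of 8 below 2.5). The 22 cells at or above 2.5, a level chosen after the values were seen, held 0 reads of *Pou5f1*, *Sox2* and *Sall4*, 2 of *Lin28a* and 6 of *Utf1*. In the other 360 cells the shares were 85.8%, 81.4%, 93.3%, 68.6% and 89.7%. All 5 genes were at least 10-fold lower, as were 6.07% of the 12643 genes compared, and their median log2 ratio was -4.36 against -0.12 over all genes. The fall was known when the 5 genes were chosen, so these values describe it and do not test it.

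The difference was also seen within sorted populations, though its size varied. In XGFPintermediate cells (26 against 90), *Pou5f1* was 24.7-fold (17 to 37.2), *Sox2* 88.3-fold (40.5 to 241), *Sall4* 28-fold (19.5 to 41.9) and *Utf1* 23.2-fold lower (19.5 to 27.7), and *Lin28a*, with 3 reads, 46.8-fold lower (15.9 to 228). The 7 *Sycp3*-high XGFPhigh cells held 0 reads of *Pou5f1*, *Sox2*, *Sall4* and *Utf1*, which with a floor of 3 reads over these cells makes them at least 184.9-fold, 127.5-fold, 103.9-fold and 301.2-fold lower than in other XGFPhigh cells, and 2 reads of *Lin28a* (25.1-fold lower, 6.92 to 207.7). The 7 XGFPlow cells held more, with *Pou5f1* 17.8-fold (10.4 to 33.4), *Sall4* 7.56-fold (5.43 to 10.9), *Lin28a* 5.54-fold (3 to 11.6) and *Utf1* 9.11-fold lower (7.55 to 11.1) than in other XGFPlow cells, and *Sox2* at 0 reads, at least 58.8-fold lower by the same floor. The 1 XGFP+ constitutive cell held 6 reads of *Sall4* and none of the others. In lane 3 alone *Pou5f1* was 42.5-fold lower (31.3 to 59.3).

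**Figure D4:**
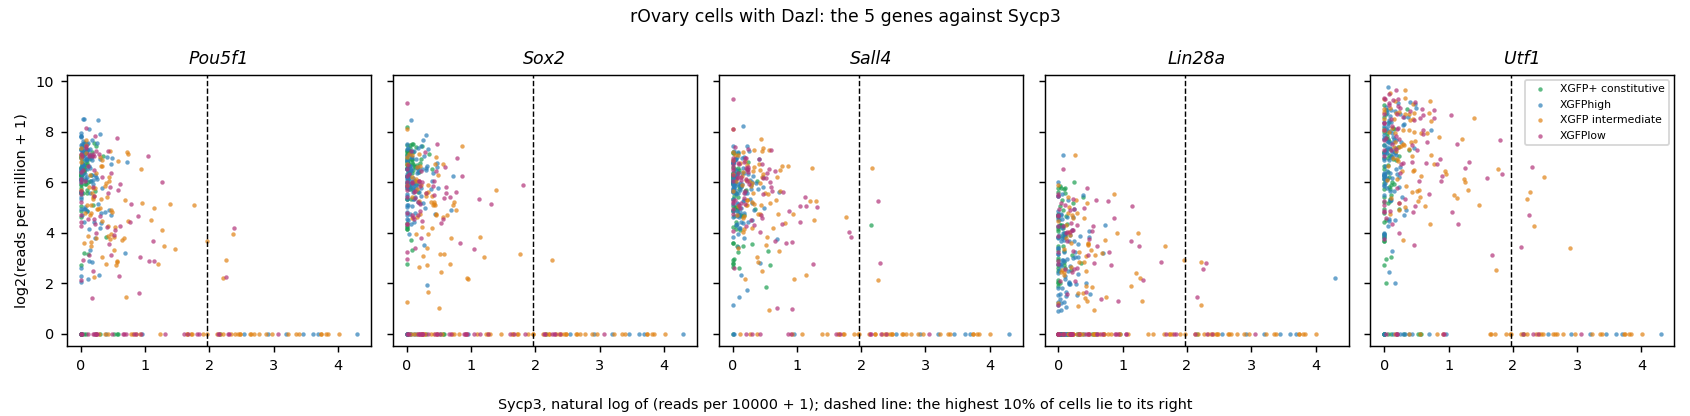
Levels of the 5 genes as log2(CPM + 1) in each *Dazl*-positive rOvary cell against its natural-log normalized *Sycp3*, coloured by sorted population, with the limit of the highest 10% drawn as a line. To the right of the line, at 1.97, most points lie at 0, and to the left cells with and without each gene are mixed.

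The same 401 cells were put in 4 bins of equal size by *Sycp3*, and all 5 genes were lowest in the highest bin. *Pou5f1* was 86.8, 95.6, 54.3 and 13.9 CPM from the lowest to the highest bin, and *Sox2* 70, 67.7, 46.2 and 11.6. *Utf1* was 160.6, 209.1, 199.4 and 78.5 CPM, *Sall4* 72.7, 51, 56.6 and 17.8, and *Lin28a* 12.4, 11.7, 10.8 and 3.29. The makeup of the bins differs, with 6, 15, 39 and 56 XGFPintermediate cells in bins 1 to 4. Within each of the 4 sorted populations, all 5 genes had their lowest level in bin 4, which holds 2 XGFP+ constitutive, 10 XGFPhigh, 56 XGFPintermediate and 32 XGFPlow cells. The order over bins 1 to 3 differed between them. *Pou5f1* went from 110.5 to 110.2 and 79.1 CPM in XGFPhigh cells, from 105.2 to 56.9 and 40.9 in XGFPintermediate and from 45.3 to 102.2 and 54 in XGFPlow cells, and *Sox2* from 65.9 to 70.7 and 84.4 in XGFPhigh but from 49.9 to 48.3 and 37.6 in XGFPlow cells.

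Cells were also counted by how many of the 5 genes had a read. Each gene alone was seen in few *Sycp3*-high cells, so cells with none would be common there without any link between the genes. Such a link was not tested. With every cell thinned to 100000 reads, 28 of 41 *Sycp3*-high cells (68.3%) had a read of none of the 5 genes, and 0 had 4 or 5 of them. Among the other 360 cells 11 (3.06%) had none and 98 (27.2%) had all 5. By bin of *Sycp3*, cells with none of the 5 made up 1.98%, 0%, 3% and 34%, and cells with all 5 made up 32.7%, 34%, 23% and 8%. In the 23 ESC wells deep enough to thin, 0 had none and 3 had all 5, and the typical cell had 4. At full depth 25 of the 41 *Sycp3*-high cells had none, and the 2 cells with the most had 4.

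**Figure D5:**
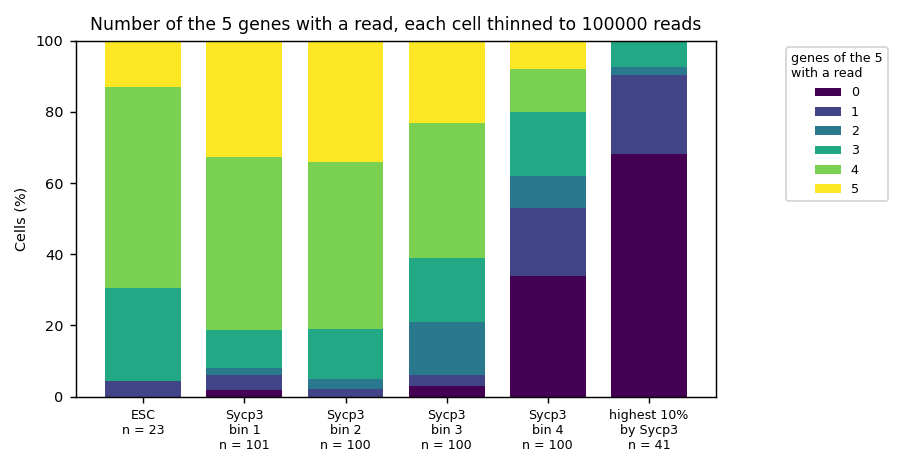
Share of cells with a read of 0 to 5 of the 5 genes, after thinning each cell to 100000 reads, in ESC wells, in the 4 *Sycp3* bins and in *Sycp3*-high cells. Cells with none make up 0% of ESC wells, 34% of bin 4 and 68.3% of *Sycp3*-high cells.

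Most of the wider network was also lower in *Sycp3*-high cells. Of 29 other pluripotency genes compared, 28 were lower (53.5% of all genes compared were), 24 of them at least 2-fold (27.5% of all genes compared) and 17 at least 10-fold (median log2 ratio -4.33). *Dppa3* was 21.4 against 1109 CPM, and *Nanog* 272.4-fold lower (152.2 to 545.8). The telomere and replication-timing factor *Rif1* (260 against 317) and the zinc finger factor *Zfp281* (44.3 against 51.8) differed little, and *Klf4* was the 1 gene of the list that was higher, at 5.4 against 3.25 CPM. Of the 11 NuRD subunits, 7 were lower and 4 higher, 3 of them at least 2-fold lower and 0 at least 10-fold, and *Chd4*, the ATPase of the complex, at 79 against 79.9 CPM. Single-cell examples in this and the next paragraphs were named after their values were seen.

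Of 12 LIN28 and let-7 genes compared, 8 were lower and 4 higher in *Sycp3*-high cells, beside 53.5% of all genes lower. *Lin28b* was 25.8 against 9.06 CPM, or 2.85-fold higher, where *Lin28a* was 18.5-fold lower. The uridylyl transferases *Zcchc11* (TUT4), at 186.1 against 79.8 CPM, and *Zcchc6* (TUT7), at 29 against 11, which tail pre-let-7 bound by LIN28, were higher too. *Trim71* (1.98 against 18.4 CPM) and *Mycn* (4.11 against 43.3), both let-7 targets, were lower. Of 7 paralogues compared, 6 were lower and *Lin28b* was the 1 that was higher.

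Germ cell and meiotic genes moved in both directions in the same cells. *Ddx4* (VASA) was 813 against 146 CPM and *Dazl* 5212 against 2317, and 8 of the 9 meiotic genes other than *Sycp3* were higher, with *Sycp1* at 1928 against 115.3, while *Rec8* was lower, at 39.1 against 82.2. Of the 8 germ cell markers, 6 were lower, among them *Tfap2c* (0.0761 against 47.3 CPM), *Nanos3* (1.03 against 36.2) and *Dnd1* (2.74 against 76.6), genes of early germ cells. Summed gonadal somatic markers were 10.8 CPM in *Sycp3*-high cells and 8.68 in the rest, with *Tcf21* and *Emx2* at 0 in both. Early mesoderm and endoderm markers summed to 5.44 against 11.1 CPM, neural markers to 14.5 against 39.9 and endothelial and blood markers to 0.533 against 0.388, and their part in the members' values was not tested.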

How the data were processed

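Bulk RNA of 16 libraries (stranded total RNA, paired-end) and 552 single-cell wells (SMART-seq, no molecular identifiers, no strand) was used. For bulk, the authors aligned reads to mm10 with SNPs masked, counted them per gene with HTSeq (0.6.1) and divided each library by its DESeq2 (1.16) size factor, so the deposited values are a normalized signal (normalized counts). Whole reads were recovered from it within 0.01 reads. For single cells the deposited table holds raw read counts per gene, made by the authors. Tool names and versions come from the submitters' processing notes and the methods. Allelic tables were not used here.

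Bulk values were tested with limma-trend (3.58.1, R 4.3.3) on log2(normalized count + 1), mean above 10, with all 4 groups in 1 model, and fold changes are on that scale. edgeR (4.0.16) and DESeq2 (1.42.0) on recovered reads, other pseudocounts, filters, normalizations and thresholds, the replicate block and leaving out each library were alternatives. On simulated data for XGFP- against XGFP+ PGCLCs (16281 genes, 200 changed), limma recovered 96% of 2-fold and 100% of 4-fold changes. XGFP- and XGFP+ libraries of the same number deviated together (r = 0.253, 0.135, 0.2 and 0.307), which came from the values, since the labels give only the number. Gene names came from GENCODE vM21 identifiers, and 238 of 16335 identifiers had none.

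Single cells were kept by the filters of the study's methods, with no doublet caller, since each well was sorted as 1 cell. *Dazl* and *Sycp3* were natural logs of reads per 10000 plus 1. Intervals are exact Poisson for levels and exact binomial (Clopper-Pearson, 95%) for shares. Exact intervals and floors of 3 reads cover counting error only, since reads are not molecules. Single-cell ratios against all genes used those with a mean CPM of at least 1. scipy (1.17.1) and pandas (2.3.3) were used.

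The members, gene lists and comparisons were chosen with earlier results of these data known, including the fall in *Sycp3*-high cells, and the promoter motifs with the sequences in view. Genes named from a list in bulk were at most 2 called genes with the largest rise and 2 with the largest fall in a comparison, and the 3 genes most like each member.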

Additional observations from a re-analysis of the deposited data

How the results depend on the processing

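Over 845 alternative bulk values of the 5 genes (30 results), 816 kept direction and side of the threshold, 8 lost their call, 17 gained one and 4 turned sign. Each of the 4 was uncalled: *Pou5f1* between EpiLCs and ESCs was 0 (log2) with quantile normalization and 0.02 with library totals, and *Sox2* between XGFP+ PGCLCs and ESCs 0.09 with quantile normalization and 0.02 without ESC replicate 4 (range -0.1 to 0.02 when 1 library was left out). With an absolute log2 fold change above 1 asked as well, 2 genes were called between XGFP+ PGCLCs and EpiLCs and 2 between XGFP- PGCLCs and EpiLCs, and the genes called overall fell from 3873 to 1821 between XGFP- and XGFP+ PGCLCs. In that comparison, where 0 of 5 were called, 1 was called with the compared groups alone, 1 by DESeq2, 2 at FDR below 0.05 (7914 of all genes), 2 with the replicate block in the compared groups alone, and 0 to 1 when 1 library was left out. In the other 5 comparisons libraries of the same number deviated together weakly and not in every pair, with r from -0.0105 to 0.16. The replicate block there changed the call of *Sall4* between EpiLCs and ESCs (FDR = 0.000576) and no other member's.

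Of 180 alternative single-cell values, 59 moved past their counting interval and 11 turned sign. Of 20 single-cell levels, 6 were below ESC wells, 8 by medians over cells (added after seeing the data), 9 in lane 2 alone and 14 by the thinned share of cells with a read. Lane 2 turned *Sox2* (-0.26) and *Lin28a* (-0.94) in XGFPhigh and *Lin28a* in XGFPintermediate (-1.39, log2). The thinned share turned *Sox2* (-0.21) and *Utf1* (-0.04) in XGFP+ constitutive, *Sox2* in XGFPhigh (-0.13), *Sall4* (-0.39), *Lin28a* (-0.15) and *Utf1* (-0.2) in XGFPintermediate, and *Sall4* (-0.07) and *Utf1* (-0.12) in XGFPlow cells. The cause was not tested. All 10 alternatives for *Sycp3*-high cells left 5 of 5 lower, 3 cells being high in lane 2 alone, but the folds moved with the limit. With the highest 20% they fell to 9.69 (*Pou5f1*), 8.01 (*Sox2*), 5.38 (*Sall4*), 3.84 (*Lin28a*) and 4.02 (*Utf1*). In the highest 5%, *Pou5f1*, *Sox2* and *Sall4* had 0 reads (at least 277.7-fold, 217.3-fold and 222.1-fold lower with the floor of 3 reads over these 21 cells), and *Lin28a*, with 2 reads, was 64.3-fold (17.8 to 531) and *Utf1* 365.9-fold lower. With cells of any *Dazl*, *Sox2* was 60.6-fold lower. Within XGFPhigh, XGFPlow and XGFP+ constitutive cells this count was not run, as fewer than 10 cells were high.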

Other observations

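The 61 rOvary cells with a natural-log normalized *Dazl* at or below 1, which are part of the population levels above, were also read alone. *Pou5f1* was 56.9 CPM in their summed counts against 61.3 in cells above the *Dazl* limit, and *Sox2* 46 against 48. *Sall4* was 31.9 against 49, *Lin28a* 4.32 against 9.47 and *Utf1* 101.8 against 161.7. The median of the 61 cells was 0 CPM for each gene but *Sox2* (12 CPM). After thinning, 27 of these cells had a read of none of the 5 genes and 25 had 4 or 5 of them, so cells with the network and cells without it made up most of the set. Gonadal somatic markers summed to 102.5 CPM here against 8.91 in cells above the *Dazl* limit. Neural markers summed to 395.2 against 37.1, and endothelial and blood markers to 87.3 against 0.403. The neural sum here was mostly *Tubb3* (382.7 against 18.7 CPM). *Pax6*, the other neural gene, was lower here than in cells above the *Dazl* limit. The part of these markers in the members' values was not tested.

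The levels of *Utf1* and *Sox2* stood differently to each other in the 2 kinds of library. Bulk ESC libraries averaged 209 normalized counts per kb for *Utf1* and 5317 for *Sox2*, whereas ESC wells, over whole genes, had 53.3 and 55.4 CPM. Bulk libraries were made from total RNA and the wells by SMART-seq, and whether the ESCs of both were cultured alike is not given in the sources used here. The cause was not tested.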
